A study of Mus musculus with 36 samples.

Results

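Neurons that are depolarised with potassium chloride (KCl) switch on early response genes within minutes, and some of their RNAs fall as fast. The transcripts described here are those that fell within 1 h of KCl in wild-type (WT) mouse cortical neurons. They were chosen by 3 conditions on CPM (a transcript's estimated count over its library's total, times 1000000): a mean of at least 3 CPM in resting WT cultures, a mean after 1 h of KCl of at most 0.5 of that, and the highest KCl library below the lowest resting library. Of the 115270 transcripts in the files, 23461 reached the level, 1263 of these were halved and 496 met all 3 conditions. The other 767 were halved on average with overlapping libraries.

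The cultures were primary cortical neurons of E16.5 embryos, kept for 7 days in vitro. Resting WT cultures (n = 5) and resting cultures of the ACTL6B -/- genotype (KO, n = 7) spent 2 h in TTX and APV. TTX blocks voltage-gated sodium channels, and APV blocks NMDA receptors. WT cultures given KCl for 1 h (n = 5) had TTX and APV for 2 h as well, and those given KCl for 6 h (n = 3) had them for 7 h, as did a WT control group without KCl (n = 4). All groups thus carried the blockers, and each KCl group had a control with the same blocker time. The KCl libraries used here are all WT, and the response of KO neurons to depolarisation is not analysed here. The level of Actl6b itself was not analysed here, because the files do not pair transcripts with genes.

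Depolarisation opens voltage-gated calcium channels, and the calcium signal reaches the nucleus, where it changes the transcription of many genes. The level of an RNA at any time reflects its synthesis, processing and decay together. ACTL6B is the actin-related subunit of the neuronal BAF complex, which uses ATP to move nucleosomes. It takes the place of ACTL6A when progenitors become neurons.

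None of the 115270 Ensembl transcript identifiers occurs in the tables of gene names used here, so the 496 transcripts have no gene name and no printed sequence. They are told apart below by their annotated length, and 4 are also given by identifier. Marker genes of neurons and of other cell types could not be checked for the same reason. In bulk cultures, fewer cells of a type and less RNA per cell cannot be told apart.

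Below, the 2 h and 7 h experiments are the libraries with 2 h and 7 h of blockers. The labels name no separate experiments. The libraries of the 2 h experiment held 5873349 to 8015063 estimated counts and those of the 7 h experiment 3569516 to 4051922. At rest in WT, 3 CPM is therefore 17.6 to 22.7 estimated counts, and in the 7 h TTX/APV libraries 10.7 to 12.1. The shallower group of libraries is the whole 7 h experiment, so depth and blocker time cannot be told apart. Comparisons of 6 h KCl with its own 7 h control stay within it.

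The summed level of the 496 transcripts gives the course in short. In the 5 resting WT libraries the sum was 3972, 4346, 4414, 4488 and 4725 CPM, which is 0.397% to 0.473% of each library. After 1 h of KCl it was 1276, 1375, 1508, 1606 and 1659 CPM. The fall is what the rule asks for, and cultures with the same code kept 0.291 to 0.376 of their resting sum. In the 4 libraries with 7 h of TTX and APV the sum was 9498, 9621, 9766 and 9879 CPM, above all 5 resting libraries. After 6 h of KCl it was 5383, 5910 and 6620 CPM, below all 4 libraries of its control and above all 5 resting libraries. Its place against rest depends on the scaling. Under TMM scaling, which assumes that most transcripts do not change, the median log2 of the 496 over rest was 0.12 in place of 0.45. The 7 KO libraries ran from 3668 to 4622 CPM with a median of 4345 CPM and overlapped resting WT.

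**Figure D1:**
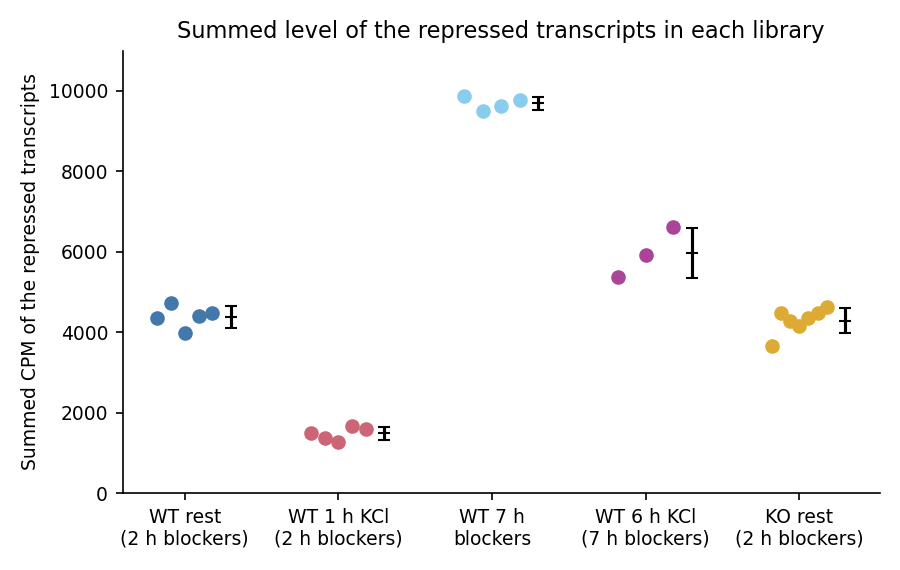
Summed CPM (y axis) of the 496 repressed transcripts in each library (points) of the 5 groups (x axis), with the group mean and SD as bars to the right. The 1 h KCl libraries lie at 1276 to 1659 CPM, the 7 h TTX/APV libraries at 9498 to 9879 CPM and the 6 h KCl libraries between 5383 and 6620 CPM.

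The depth of the fall at 1 h varied among the 496. The median transcript kept 0.356 of its resting level, and the middle of the distribution, from the first to the third quartile, ran from 0.261 to 0.429. In 175 transcripts the ratio lay above 0.4 and in 26 it was at most 0.1. Most were of low level: 221 had 3 to 5 CPM at rest, 166 had 5 to 10, 93 had 10 to 30 and 16 had more. Just inside the limit a transcript of 707 bases had a ratio of 0.499 (8.34 CPM at rest), and just outside it one of 5153 bases had 0.5002 (11.9 CPM at rest). At the level limit, a transcript of 895 bases with 3.02 CPM was in and one of 2452 bases with 2.998 CPM was out. edgeR called 353 of the 486 tested ones lower after 1 h of KCl, where 2.00% of all tested transcripts were called lower and 2.54% higher. Since the rule used this contrast, that count says only how far the rule and the test coincide.

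The 6 with the highest resting CPM show how differently the 496 went on afterwards. The first, of 4101 bases, had 100, 114.4, 117.8, 134.7 and 141.3 CPM at rest and 24.1, 25.1, 30.7, 36.8 and 48.1 CPM after 1 h of KCl. In the 7 h TTX/APV libraries it had 22.3, 27.8, 44.7 and 95.6 CPM, and in those of 6 h KCl 0.676, 11.5 and 16.48 CPM. Its libraries at 6 h lay below all of the control, but the control values were wide apart and the difference was not called (log2 fold change -2.065 with SE 0.917, edgeR adjusted p = 0.188). It was called with all RNA libraries in one fit (edgeR adjusted p = 0.00986, against 0.00986 to 0.414 over all alternatives).

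The second, of 6322 bases, had 75.8, 81.6, 82.5, 98.7 and 121.6 CPM at rest and 5.14, 7.81, 12.9, 13.4 and 15.6 CPM after 1 h of KCl, an 8.39-fold difference of the means. The 7 h TTX/APV libraries had 93.7, 118.6, 121.8 and 123.1 CPM, and those of 6 h KCl 62.2, 72.2 and 87.1 CPM. The 6 h libraries again lay below their control without a call (log2 fold change -0.45 with SE 0.149, edgeR adjusted p = 0.0927). It was called by DESeq2, with libraries scaled by total counts, and without the 7 h TTX/APV library 4-2 (edgeR adjusted p = 0.0488 for the last, 0.0285 to 0.308 over all alternatives).

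The fifth, of 5536 bases, had the clearest second fall of the 6. It was at 56.5, 79.9, 81.4, 85.3 and 93.6 CPM at rest and at 9.91, 13.1, 16.0, 16.49 and 20.03 CPM after 1 h of KCl. In the 7 h TTX/APV libraries it stood at 302.0, 373.1, 408.7 and 430.5 CPM and after 6 h of KCl at 110.5, 132.8 and 149.7 CPM. The 6 h groups did not overlap, and the fall was called (log2 fold change -1.34 with SE 0.179, edgeR adjusted p = 0.00435), also in all 12 alternatives. Its level in CPM under 6 h of KCl was still above that of every resting library, a comparison across blocker times that depends on the scaling.

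The other 3 of these 6 did not pass the test at 6 h. The transcript of 3537 bases had 145.9, 157.1 and 183.9 CPM after 6 h of KCl and 180.7 to 205.2 CPM in the control, and these ranges overlapped (log2 fold change -0.04 with SE 0.0768, edgeR adjusted p = 0.773). The transcripts of 4212 and 1945 bases lay below their controls in every library, with log2 fold changes of -0.33 (SE 0.105) and -0.48 (SE 0.174) and edgeR adjusted p of 0.0769 and 0.116. Both were called by DESeq2 and when libraries were scaled by total counts, and that of 4212 bases also without the 6 h KCl library 4-4 (edgeR adjusted p = 0.0394). Per length, in TPM (estimated counts divided by length and scaled to one sum per library), the order of the 6 at rest differs from that in CPM: the one of 1945 bases was highest at 58.97 TPM, followed by 46.1 TPM for 4101 bases, and that of 5536 bases was lowest at 21.96 TPM.

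**Figure D2:**
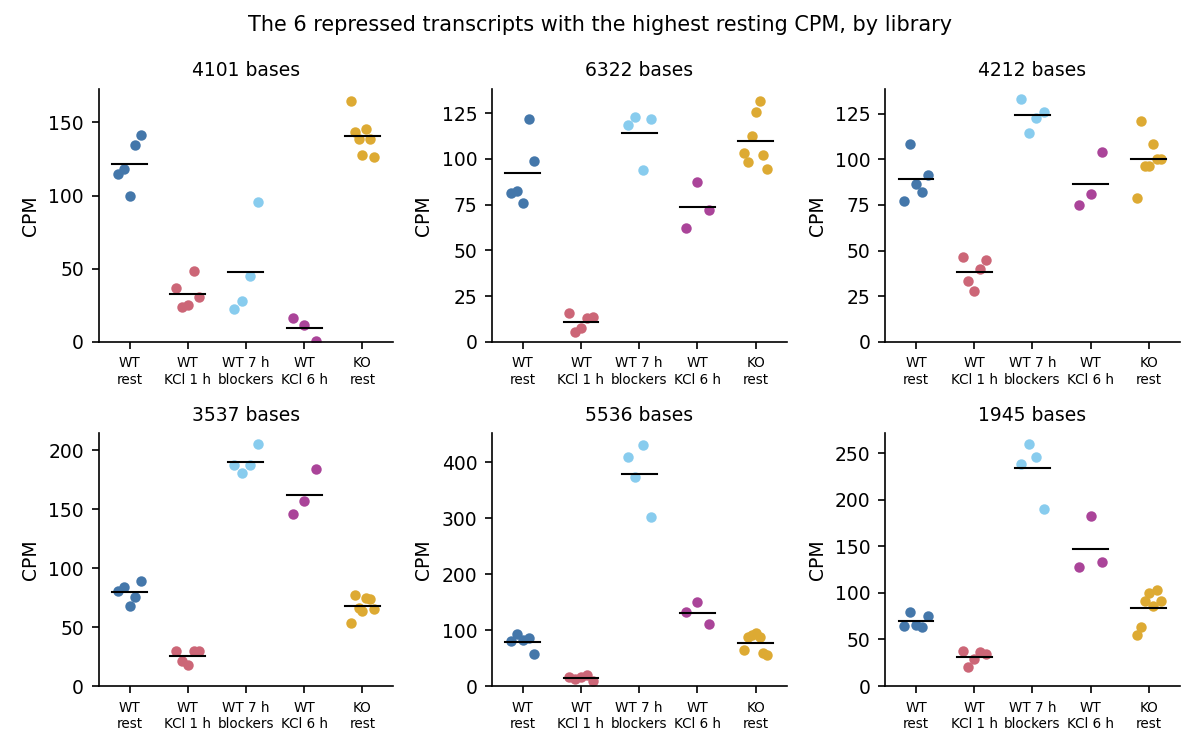
CPM (y axes, each from 0) of the 6 repressed transcripts with the highest resting CPM, by library (points) in the 5 groups (x axes), with group means as lines. All 6 are low after 1 h of KCl, and the transcript of 5536 bases rises to 302.0 to 430.5 CPM in the 7 h TTX/APV libraries and lies at 110.5 to 149.7 CPM after 6 h of KCl.

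Among transcripts with at least 10 CPM at rest, the lowest ratios at 1 h belonged to some that were listed at 0. The one of 493 bases had 6.80, 8.77, 8.84, 11.4 and 18.7 CPM at rest and 0 in all 5 KCl libraries, which is at least 133-fold lower against 3 counts over the group. It was at 0 in all 3 libraries after 6 h of KCl and in 3 of the 4 libraries of their control too, while KO had 1.71 to 15.4 CPM. The one of 1491 bases had 7.15, 9.87, 19.0, 25.6 and 26.1 CPM at rest, at most 0.515 CPM after 1 h of KCl, and 0 in all 7 libraries of the 7 h experiment. In KO it had 18.1 to 49.2 CPM, with a median of 28.2. That of 4105 bases was less extreme, with 10.8 to 15.4 CPM at rest and 0 to 2.37 CPM after 1 h of KCl. It fell again at 6 h, from 11.4 to 21.9 CPM in the control to 3.76 to 6.39 CPM (log2 fold change -1.33 with SE 0.333, edgeR adjusted p = 0.0375). It did not pass in 9 of 12 alternatives, 6 of them leaving out a single library (any of 6 h KCl, or 3-4, 3-7 or 4-2 of the control).

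Estimated counts share out reads that fit several transcripts of a gene, and such shares can be 0. Of the 496, 74 were at 0 in at least 1 of the 1 h KCl libraries, 7 of them in all 5. Whole estimated counts in every library, within 0.001, mark reads that were not shared out. They were found in 7 of the 496 (1.41%) and in 657 of the 23461 transcripts with at least 3 CPM (2.80%). The part of shared reads in the fall at 1 h was not tested. A pair among the 496 had the same length and the same counts in every library and adds 1 measurement, not 2.

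After 6 h of KCl most of the 496 were again below their control. Over all 496, 436 (87.9%) had a lower mean than after 7 h of TTX and APV, against 59.9% of all 23461. The median ratio was 0.623 (log2 -0.68, with 0.5 CPM added). For all 23461 transcripts with at least 3 CPM at rest the median was 0.889 (log2 -0.17). These libraries took no part in the choice of the 496. In 276 of the 496 (55.7%) all 3 libraries of 6 h KCl lay below all 4 of the control, against 21.4% of the 23461. The opposite held for 12 (2.42%), against 12.1%.

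The summed level gave the same picture in each culture code. It was 0.567, 0.614 and 0.678 of the control in codes 3-7, 4-2 and 4-4. Under TMM scaling, which assumes that most transcripts do not change, the median log2 was -0.46 for the 496 and 0.05 for all 23461. The number of the 496 with a lower mean was then 393. All libraries of 6 h KCl lay below the control in 208 (41.9%, against 14.1% of the 23461) and above it in 20 (4.03%, against 18.8%). Scaling moves all transcripts of a library together, so the gap between both medians stayed at -0.51 and is no check of the result.

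**Figure D3:**
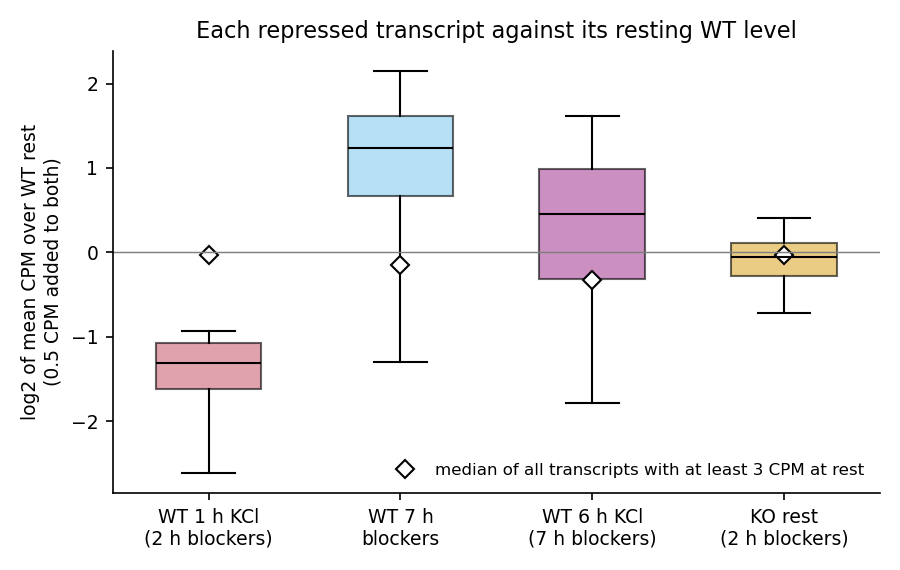
Log2 of each repressed transcript's mean CPM over its resting WT mean (y axis, 0.5 CPM added to both) in the 4 other groups (x axis). Boxes span the quartiles with the median as a line, whiskers the 5th to 95th percentile, and diamonds mark the median of all 23461 transcripts with at least 3 CPM at rest. The medians of the 496 are -1.31, 1.24, 0.45 and -0.06, and all values share the resting WT libraries that the rule used.

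By the test over all 33196 transcripts, 130 of the 467 tested members fell at 6 h and 7 rose (edgeR adjusted p under 0.05), while 6.88% of all tested transcripts fell and 8.46% rose. That is 26.2% and 1.41% of the 496. With libraries scaled by total counts, 171 members fell and 6 rose, while the calls over all tested transcripts went from 2283 lower and 2808 higher to 3373 lower and 1934 higher. A further 330 were tested and not called, and 29 were too low in the 7 h experiment to be tested. The 130 had a median edgeR log2 fold change of -1.32, and 95 of them fell at least 2-fold. Single libraries moved the counts. The 130 became 72 without the 6 h KCl library 3-7 and 78 without 4-2. Of all tested transcripts, 3.84% and 3.68% were then lower. The 7 became 4, 3 and 4 without the 6 h KCl libraries 3-7, 4-2 and 4-4, with 4.59%, 4.74% and 6.21% of all higher. Without the 7 h TTX/APV library 4-4 the 7 became 4, with 6.98% of all tested transcripts higher.

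The largest falls at 6 h ended at or near 0. ENSMUST00000074519.12, of 2827 bases, had 9.01, 10.1, 13.1, 16.4 and 25.6 CPM at rest and was at 0.785 CPM in 1 library and practically 0 in 4 after 1 h of KCl. The 7 h TTX/APV libraries had 10.6, 21.3, 26.9 and 34.9 CPM, and its 3 libraries of 6 h KCl together held under 1 estimated count, at least 89.4-fold lower (adjusted p = 0.00407 by edgeR). ENSMUST00000162899.7, of 1511 bases, had 5.21, 10.3, 17.3 and 18.8 CPM in the 7 h control and 0 in all 3 libraries of 6 h KCl, at least 49.2-fold lower (adjusted p = 0.00695 by edgeR). The first was thus near 0 at both times of KCl, while the second had 2.87 and 2.90 CPM in 2 of the 5 libraries after 1 h of KCl and 0 in the other 3.

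The next falls were smaller, and these transcripts held 0 to 4.215 estimated counts in a library of 6 h KCl. The transcript of 2795 bases had 7.17, 10.8, 15.4 and 21.0 CPM in the control and 0.270, 0.579 and 0.651 CPM after 6 h of KCl (log2 fold change -4.68 with SE 0.554, edgeR adjusted p = 0.00284). That of 2455 bases had 6.495, 8.70, 8.81 and 9.18 CPM against 0.531, 0.952 and 1.12 CPM (log2 fold change -3.16 with SE 0.347, edgeR adjusted p = 0.00216). Its ratio was 0.416 at 1 h and 0.105 at 6 h, so the later fall was the larger one in each case against its own control; the difference between the times was not tested. The transcript of 2010 bases went from 3.63, 3.90, 5.82 and 6.72 CPM to 0.383, 0.551 and 0.740 CPM (log2 fold change -2.99 with SE 0.504, edgeR adjusted p = 0.00959). That of 547 bases went from 3.27 to 7.47 CPM to 0, 0 and 0.879 CPM (log2 fold change -3.97 with SE 0.980, edgeR adjusted p = 0.0356). The last call is weak: it was lost without any 1 of the 4 control libraries or of the 6 h KCl libraries 3-7 and 4-2, with edgeR adjusted p up to 0.0933.

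Of the 7 that rose at 6 h, the largest rise came from a level near 0. ENSMUST00000109495.7, of 813 bases, had 11.3, 13.6, 14.8, 14.9 and 19.8 CPM at rest, 1.22 CPM in 1 library and 0 in 4 with KCl for 1 h, and 0, 0, 0.720 and 2.67 CPM in the 7 h TTX/APV libraries. After 6 h of KCl it had 14.6, 19.8 and 20.5 CPM, like the resting cultures (log2 fold change 4.55 with SE 0.999, edgeR adjusted p = 0.0260). The call was lost without the 7 h TTX/APV library 4-4 or any of the 3 libraries of 6 h KCl (edgeR adjusted p of 0.0614 to 0.0803). This transcript was thus low in the silenced group at 7 h and not at 2 h, and high with KCl at 6 h and not at 1 h.

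The other rises were smaller. ENSMUST00000188799.6, of 4083 bases, had 15.3, 18.6, 20.2 and 21.0 CPM in the control and 34.2, 34.9 and 35.0 CPM after 6 h of KCl (log2 fold change 1.08 with SE 0.159, edgeR adjusted p = 0.00606). That of 5066 bases had 47.7, 52.6, 56.4 and 60.3 CPM against 86.5, 88.2 and 91.0 CPM (log2 fold change 0.90 with SE 0.107, edgeR adjusted p = 0.00282). Those of 4222, 2978 and 2277 bases had log2 fold changes of 0.90, 0.85 and 0.75 (edgeR adjusted p of 0.0196, 0.0174 and 0.00706), and in each the groups did not overlap. The first of these 3 lost its call without the 6 h KCl library 3-7 or 4-2, the second without 4-2 or 4-4 or the 7 h TTX/APV library 4-4, with edgeR adjusted p of 0.0501 to 0.0675. All 6 of these named transcripts had been at 0.0164 to 0.453 of their resting level at 1 h.

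**Figure D4:**
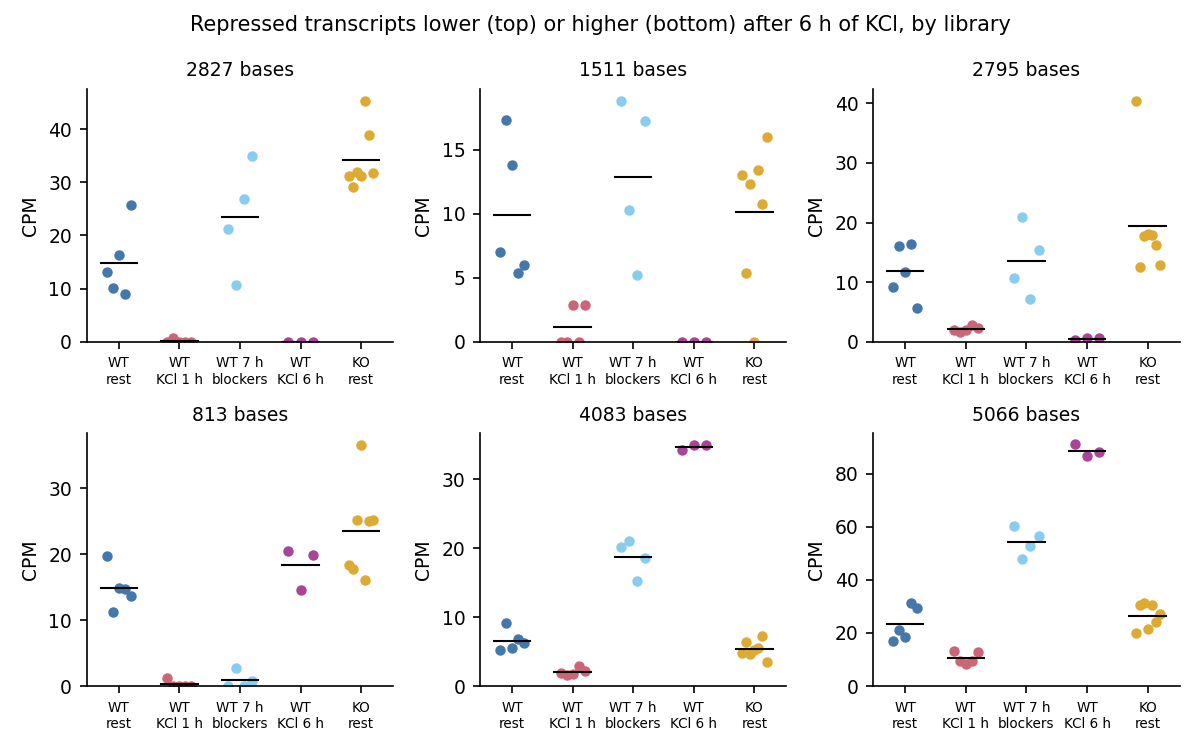
CPM (y axes, each from 0) by library (points) in the 5 groups (x axes), with group means as lines. The top row shows the 3 repressed transcripts with the largest falls at 6 h, which hold at most 0.651 CPM after 6 h of KCl, and the bottom row the 3 with the largest rises, which hold 14.6 to 91.0 CPM.

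Levels after 6 h of KCl can also be set beside the resting ones of the 2 h experiment, as a description, since the rule used these. The mean after 6 h of KCl was at or above the resting mean at 2 h in 327 of the 496, between the 1 h KCl and resting means in 136, and at or below the 1 h KCl mean in 33. Of the 130 that fell at 6 h, 68 were still at or above their resting level at 2 h. Of all 23461, 61.2% were below rest. The scaling matters here: under TMM 272 of the 496 were above rest and 224 below, with a median log2 of 0.12 in place of 0.45. For all 23461 the median log2 was -0.66 under TMM in place of -0.33.

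At 7 h of TTX and APV, 435 of the 496 had a higher mean than at 2 h, and the median ratio was 2.35. Of all 23461, 55.8% had a lower mean at 7 h. In 358 (72.2%) all 4 libraries lay above all 5 resting ones, against 21.8% of the 23461, and in 24 (4.84%) all lay below, against 23.5%. edgeR called 319 of the 494 tested higher and 26 lower, where 28.3% and 25.7% of all tested transcripts were called. The resting libraries entered the rule, which favours high values in them and so a lower level elsewhere, and these counts are a description. The scaling matters for the size: under TMM the median log2 was 0.67 for the 496 and -0.70 for all 23461, in place of 1.24 and -0.14. The number with all libraries above was then 259 (52.2%, against 12.7% of the 23461), and with all below 41 (8.27%, against 42.6%). The gap between the medians was 1.37 under TMM and 1.38 without it, since scaling moves all transcripts of a library together. Depth, blocker time and any other difference between the 2 h and 7 h libraries move together here, and their part was not tested.

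A feature of the identifiers that the rule did not use was more common among the 496 than among all 23461. The number after the point is Ensembl's version of the transcript record, which goes up when the record is revised. Of the 496, 315 (63.5%) were at version 1, against 6579 of the 23461 transcripts with at least 3 CPM (28.0%). Version 1 is more common at low levels, but the gap was there in every class of level: 68.8% of the members against 40.8% of the others at 3 to 5 CPM, 60.8% against 32.7% at 5 to 10, 60.2% against 24.8% at 10 to 30, and 6 of 16 (37.5%) against 14.2% above. Of the 767 that were halved with overlapping libraries, 32.7% were at version 1. A mirrored rule, with the groups exchanged, gave 565 transcripts that rose within 1 h, and 50.1% of these were at version 1.

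The version also went with the later course. Over all 23461, the median log2 of 7 h over 2 h of TTX and APV was 0.25 at version 1 and -0.25 at later versions. Among the 496 it was 1.37 and 0.89. So members of either kind were further up than transcripts of their own kind. The 6 h KCl medians were -0.64 and -0.83 among the 496 and -0.18 and -0.16 among all. The summed CPM of all version 1 transcripts with at least 3 CPM was 232200 ± 5023 (SD, n = 4) at 7 h and 189700 ± 3913 (SD, n = 5) at rest, 1.22 times as much, where the 496 were at 2.21 times. All these version values are scaled by the library total. Under TMM the median log2 of 7 h over 2 h for all 23461 was -0.70 in place of -0.14. That shift is larger than 0.25, so the direction for all version 1 transcripts depends on the scaling.

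**Figure D5:**
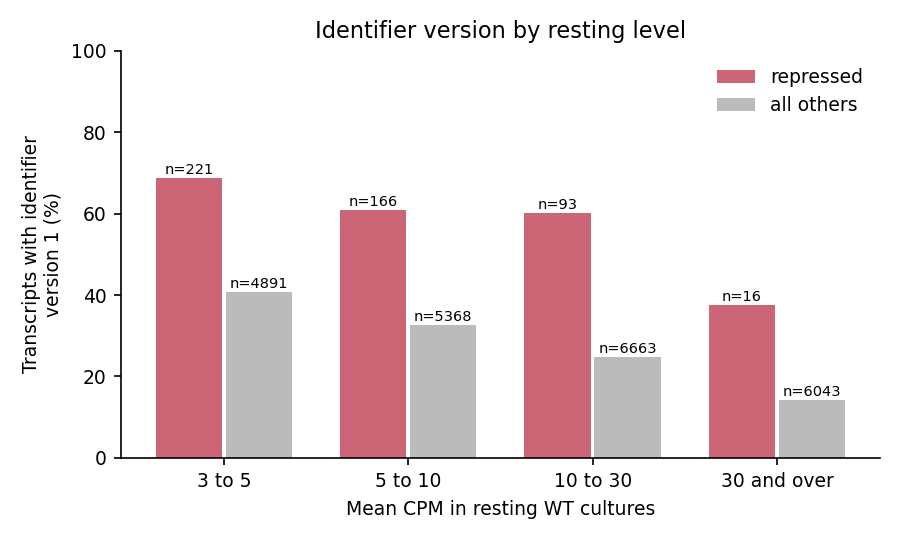
Share of transcripts whose identifier is at version 1 (y axis, percent) by mean CPM at rest (x axis), for the 496 repressed transcripts and for all others with at least 3 CPM, with the number of transcripts above each bar. The repressed bars run from 37.5% to 68.8% and the others from 14.2% to 40.8%, and the repressed bar is the higher one in all 4 classes.

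In annotated length the 496 held fewer of the shortest and longest transcripts than all 23461. The median was 3012 bases, against 2960 for all 23461, and the quartiles were 1966 and 4044 bases against 1690 and 4425. Transcripts of 2000 to 6000 bases made up 69.96% of the 496 and 57.4% of all. Those under 1000 bases made up 11.5% and 14.7%, and those of 6000 bases or more 4.44% and 11.8%. Those at version 1 were long for their kind, with a median of 3105 bases against 2264 for all version 1 transcripts, a difference that was not tested.

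In resting KO cultures the summed level of the 496 overlapped that of resting WT. The summed level was 4292 ± 314 CPM in KO (SD, n = 7) and 4389 ± 273 CPM in WT (SD, n = 5). The KO mean was at or above the WT mean in 194 of the 496 and below it in 302 (60.9%, against 54.0% of all 23461). The median ratio of KO to WT was 0.959 for the 496 and 0.980 for all 23461. KO library 1-1 was the lowest, at 3668 CPM, and without it the other 6 had 4396 ± 166 CPM (SD, n = 6) and the median ratio was 0.982. The rule asked for high resting WT libraries, which by itself sets KO lower in comparison, so these ratios support no difference between genotypes.

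edgeR called 6 of the 496 lower and 1 higher in KO, which is 1.21% and 0.202%, where 1.63% and 1.30% of all 32904 tested transcripts were called. The groups did not overlap in 11 that were lower (2.22%, against 3.06% of the 23461) and 2 that were higher (0.403%, against 1.65%). These shares are near or below those of all transcripts. The 6 became 3 without KO library 1-1, 3-3 or 3-5, 2 without 3-2 or 4-8 and 1 without 4-7. They became 3 without WT library 3-4, 2 without 4-3 and 1 without 3-7, 4-2 or 4-4. The 1 became 4 without KO library 1-1 and 0 without WT library 3-4, 3-7 or 4-2. Over all tested transcripts, 0.852% to 1.725% were lower without 1 KO library and 0.638% to 0.987% without 1 WT library. Without KO library 1-1, 1.22% of all were higher, and without WT library 3-4, 3-7 or 4-2, 0.646% to 0.679%.

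The 1 that was higher in KO is the transcript of 2827 bases that was near 0 under KCl at both times. Its 7 KO libraries had 29.1 to 45.3 CPM with a median of 31.7, above all 5 resting WT libraries at 9.01 to 25.6 CPM (log2 fold change 1.21 with SE 0.241, edgeR adjusted p = 0.0201). The call was lost without WT library 3-4, 3-7 or 4-2 (edgeR adjusted p of 0.0511 to 0.0619; 6.64e-05 to 0.147 over all alternatives). Here the KO value lay on the far side of rest from the KCl value.

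The transcript with the largest loss in KO, of 5244 bases, was a case of reads at 0. It had 2.61, 4.09, 5.77, 10.5 and 14.4 CPM at rest and under 1 estimated count over all 7 KO libraries, at least 116-fold lower (adjusted p = 0.00686 by edgeR). It was also practically at 0 in all 5 libraries of 1 h KCl and at 0 in all 4 of 7 h TTX/APV, and too low to be tested at 6 h.

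The other 5 that were lower in KO kept more than 0.5 of the WT level. That of 2339 bases had 4.32, 5.00, 5.60, 5.74 and 6.19 CPM in WT and 2.71 to 4.02 CPM in KO with a median of 3.15 (log2 fold change -0.76 with SE 0.168, edgeR adjusted p = 0.0331). That of 4239 bases had 6.78, 7.02, 9.94, 10.4 and 12.2 CPM in WT and 3.71 to 6.39 CPM in KO with a median of 5.08 (log2 fold change -0.86 with SE 0.197, edgeR adjusted p = 0.0378). In neither did the genotypes overlap. That of 2441 bases had 12.6 to 24.1 CPM in WT and 8.46 to 13.8 CPM in KO, with 1 KO library inside the WT range (log2 fold change -0.78 with SE 0.179, edgeR adjusted p = 0.0386). That of 3191 bases had 8.46 to 9.33 CPM in WT and 3.36 to 6.52 CPM in KO (log2 fold change -0.73 with SE 0.167, edgeR adjusted p = 0.0365). The last of the 6, of 3238 bases, is outside the naming rule and was looked at after its values were seen. It had 24.7 ± 2.28 CPM in WT (SD, n = 5) and 17.8 ± 2.24 CPM in KO (SD, n = 7), with an edgeR adjusted p of 0.0445.

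All 5 of these also fell after 6 h of KCl, in libraries of which none enters the KO comparison. Their log2 fold changes at 6 h were -1.89 for 2339 bases, -0.60 for 4239 bases, -1.34 for 2441 bases, -1.94 for 3191 bases and -1.14 for 3238 bases. They are 5 of the 6 lower in KO and 5 of the 130 lower at 6 h. The 1 higher in KO, of 2827 bases, fell at 6 h as well, and 26.2% of all 496 were called lower at 6 h. Whether KO calls and 6 h calls coincide beyond that was not tested. The transcript of 3191 bases, for example, had 9.03, 9.76, 10.4 and 10.7 CPM in the 7 h control and 0.987, 1.33 and 4.69 CPM after 6 h of KCl (edgeR adjusted p = 0.0419). The KO calls of the 4 named ones each rested on single libraries: they were lost in 9 to 13 of 17 alternatives, with edgeR adjusted p of up to 0.110 to 0.170.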

How the data were processed

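RNA-seq of 24 libraries was used; 12 ATAC-seq libraries were not, since their regions cannot be tied to transcripts without gene names. The deposited RNA files give, per the file headers, estimated counts, TPM and lengths for each transcript. The submitters' processing notes name kallisto 0.44.0, without saying which step it belongs to; the sources used here name no transcript annotation. RNA was total RNA, per the labels' protocols. The deposited TPM values were used to compare levels between transcripts, and CPM was computed from the estimated counts.

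Estimated counts were rounded and tested with edgeR 4.0.16 in R 4.3.3 (quasi-likelihood F-test, robust, TMM, filterByExpr by group), with Benjamini-Hochberg adjustment over all transcripts tested and a threshold of 0.05. The test was tried on simulated counts first. Each fit held the 2 groups compared. Alternatives were DESeq2 1.42.0, scaling by total counts, no filter, all RNA libraries in one fit, the culture code as a block, its first number as a covariate (KO) and leaving out each library. Medians of ratios added 0.5 CPM. Bounds of folds against a group at 0 use 3 counts over the group and cover counting error only.

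The members and lists were chosen with earlier results of these data known. Gene lists and markers could not be applied. Named transcripts were the 6 highest at rest, the 6 lowest ratios at 1 h with at least 10 CPM, and those past the threshold with the largest change in each direction at 6 h (6 each) and in KO (up to 5 each). The series describes the replicates as biological, and what a culture code marks is not stated. Libraries of a group shared at most 0.183% of counts above 20.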

Additional observations from a re-analysis of the deposited data

Results flagged for a closer look

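In 108 groups of 4 to 7 libraries (the sums and the 26 named transcripts), 14 libraries stood apart from the rest of their group by the size of the gap to the nearest other library relative to the group's range, on CPM rounded to 0.1. For normally distributed values chance flags about 1 in 20 groups, a rate that need not hold for rounded values or groups mostly at 0.

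After 1 h of KCl these were library 4-4 for the transcript of 1491 bases (0.5 CPM, the others at 0), 3-7 for that of 2827 bases (0.8, the others at 0), 3-4 for that of 813 bases (1.2, the others at 0), 3-7 for that of 547 bases (1.4, next 0.4) and 4-4 for that of 3191 bases (6.0, next 3.9). After 7 h of TTX and APV they were library 4-2 for the transcript of 6322 bases (93.7, next 118.6), 4-4 for that of 493 bases (5.1, the others at 0) and 4-2 for that of 2339 bases (14.7, next 9.8). At rest in WT, 4-4 stood apart for the transcript of 2010 bases (5.1, next 4.8) and 4-2 for that of 3191 bases (8.5, next 9.1), both within a narrow range. In KO it was 3-5 for the transcript of 493 bases (1.7, the others higher), 1-1 for that of 2795 bases (40.4, next 18.1), 4-8 for that of 547 bases (11.4, next 3.5) and 4-7 for that of 4222 bases (9.8, next 6.6).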

How the results depend on the processing

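The 496 became 109 with a minimum of 10 CPM, 321 with a ratio of at most 0.4, and 605 to 681 without 1 culture code. With TMM-scaled CPM the rule gave 507, of which 468 are among the 496. The members called lower at 6 h were 72 to 110 without 1 library, where 3.68% to 5.19% of all tested transcripts were lower. Those called higher were 3 to 7, where 4.59% to 6.98% of all were higher. DESeq2 called 175 members lower and 11 higher, where 11.5% of all tested transcripts were lower and 12.4% higher. The median log2 at 6 h was -0.46 with TMM-scaled CPM, an alternative chosen after seeing the data, and -0.80 to -0.62 without 1 library. In KO, without 1 library, 0.638% to 1.725% of all tested transcripts were called lower and 0.631% to 1.46% higher. The members called lower were then 1 to 7 and those called higher 0 to 4. They were 19 and 2 of 487 by DESeq2, where 4.29% and 3.89% of all tested transcripts were called. With the first code number as a covariate they were 2 and 5 of 496, where 1.53% and 1.10% were called, and 1 was lower without a filter, where 0.286% were. Of the 330 repeats of calls of named transcripts, 235 kept their side of the threshold, 86 lost the call, 9 gained one and no direction changed. With the culture code as a replicate block, 10 members of 467 were lower and 1 higher at 6 h, where 0.609% and 1.84% of all tested transcripts were. Deviations of libraries with the same code correlated at 0.0332 to 0.0738 at 6 h and at -0.000863 to 0.0846 at 1 h, so the codes were not taken to pair them, although each of the 3 pairs at 6 h correlated better than crossed ones. No paired analysis was possible for KO because KO and WT share no code. The 7 h libraries hold few counts at 3 CPM, which limits calls among low transcripts.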
